A study of Mus musculus with 8 samples.

Results

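Sox1, Sox3, Sox4, Sox9, Sox11, Sox15, Sox18 and Sox21 are 8 genes of the Sox family of transcription factors other than Sox2, the member that belongs to the core pluripotency network. They were followed in mouse embryonic stem cells (ESCs) and in primordial germ cell-like cells (PGCLCs) that carried or lacked Tfap2c. Every probe set of the array whose annotation names 1 of these genes and no other was taken, which gave 25 of 45037 probe sets and 8 of the 18193 genes that the annotation names. Sox4 has 8 probe sets, Sox11 has 6, Sox9 has 3, Sox1, Sox3 and Sox21 have 2 each, and Sox15 and Sox18 have 1 each. The genes were given by name. On GRCm38.p6, per RefSeq, they lie at chr8:12395519-12399555 (Sox1), chrX:60891366-60893430 (Sox3), chr13:28948919-28953699 (Sox4), chr11:112782210-112787757 (Sox9), chr12:27334268-27342718 (Sox11), chr11:69655037-69656727 (Sox15), chr2:181669837-181671640 (Sox18) and chr14:118233233-118237030 (Sox21).

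The study asked what the loss of Tfap2c, which encodes a transcription factor of the AP-2 family, changes in the transcripts of PGCLCs and of the ESCs they came from. Tfap2c-/- PGCLCs, control PGCLCs, Tfap2c-/- ESCs and control ESCs were each measured on 2 Affymetrix mouse arrays, 8 in all. All 4 groups carried the Blimp1mVenus transgene, a fluorescent reporter of Prdm1. The control lines kept both floxed copies of Tfap2c intact (Blimp1mVenus/Tfap2c flox/flox), and the Tfap2c-/- lines were made from them by transient transfection of a Cre plasmid under the pGK promoter. PGCLCs of both genotypes were made through epiblast-like cells in medium with BMP4, BMP8b, SCF, LIF and EGF, and only reporter-positive cells were sorted, so cells without the reporter were not measured. The labels call these cells PGC, and they give replicate numbers 1 and 2 in each group. The paper names 2 ESC lines, each in a control and a Tfap2c-/- form, for these arrays. The labels do not tie a number to a line. A difference between samples may thus hold a difference between lines, and the error may be partly technical. Samples are called sample 1 and sample 2 below.

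Sox proteins bind DNA through an HMG box and act mostly together with partner factors. Sox1 and Sox3 are of the SoxB1 group and, with Sox2, keep neural progenitors undifferentiated, whereas Sox21 of the SoxB2 group counteracts SoxB1 factors during neurogenesis. Sox4 and Sox11 are SoxC factors of progenitors and newborn neurons, Sox9 is a SoxE factor of cartilage and of Sertoli cells, Sox18 is a SoxF factor of the endothelium, and Sox15 is the single SoxG factor of mammals, which is expressed in mouse ESCs.

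Upstream sequence was looked at because TFAP2C binds DNA. The RefSeq promoter table (GRCm38.p6) matched 5 of the 8 genes, namely Sox1, Sox4, Sox11, Sox15 and Sox21. The 250 bases before each start were searched on both strands for the AP-2 consensus GCCNNNGGC and for the Sox core motifs ACAAAG and ACAATG, and no match of one motif overlapped a match of another. GCCNNNGGC was found in 13.7% of the 32851 windows of the table, ACAAAG in 16.5% and ACAATG in 10.7%. Among the 5 Sox windows, the AP-2 consensus matched once in Sox11, with its first base 63 bases before the start, and once in Sox21, 193 bases before the start, and neither Sox motif matched in any. The Sox15 window is shown because Sox15 is the gene with the largest difference below, and the windows of Sox11 and Sox21 are shown because they hold the matches, which are in capitals. The window of Sox15 (chr11:69654787-69655036, plus strand) had 55.6% G and C, that of Sox11 (chr12:27342719-27342968, minus strand) 58.0% and that of Sox21 (chr14:118237031-118237280, minus strand) 65.2%. They read from the 5′ end as follows.
Sox15: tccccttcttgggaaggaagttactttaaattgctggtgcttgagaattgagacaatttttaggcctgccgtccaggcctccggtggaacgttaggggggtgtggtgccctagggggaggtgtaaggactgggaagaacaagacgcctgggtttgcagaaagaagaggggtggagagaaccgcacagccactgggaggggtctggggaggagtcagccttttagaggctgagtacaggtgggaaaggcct
Sox11: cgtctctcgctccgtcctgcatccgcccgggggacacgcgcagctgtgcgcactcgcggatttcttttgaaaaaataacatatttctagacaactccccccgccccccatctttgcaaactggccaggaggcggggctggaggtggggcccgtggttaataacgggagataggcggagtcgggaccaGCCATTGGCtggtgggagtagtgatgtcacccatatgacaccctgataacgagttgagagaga
Sox21: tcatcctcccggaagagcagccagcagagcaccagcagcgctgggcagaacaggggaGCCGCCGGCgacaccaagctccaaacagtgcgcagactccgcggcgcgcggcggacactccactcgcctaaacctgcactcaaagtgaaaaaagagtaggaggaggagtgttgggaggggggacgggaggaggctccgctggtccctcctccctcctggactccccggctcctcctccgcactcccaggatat
No binding was measured on these arrays, and a match or its absence in these windows is a description of letters.

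The deposited values are on the log2 scale, so a difference of 1 is a change by a factor of 2 in normalised signal. The array medians lay between 3.47 and 3.55, and probe sets below them are near the floor of the scale. Tfap2c itself, on the brightest of its 3 probe sets, had 8.52 and 8.85 in Tfap2c-/- PGCLCs, against 9.84 and 10.29 in control PGCLCs, while Tfap2c-/- ESCs had 7.28 and 6.47, against 7.88 and 9.14 in control ESCs. It was lower in both Tfap2c-/- groups without overlap, by 1.38 (SE 0.42, adjusted p = 0.204, limma) in PGCLCs and by 1.63 (SE 0.42, adjusted p = 1, limma) in ESCs, and it was not known whether its probes lie in the deleted part. For the deletion itself the paper gives genotyping PCR and TFAP2C immunofluorescence of its ESC lines, which these arrays do not measure. All 8 pluripotent cell markers and all 8 measured germ cell markers lay above the array median on every array. PGCLCs were sorted by the reporter of Prdm1, so a higher Prdm1 in them is not independent of the sort. Against control ESCs control PGCLCs had more Dppa3, Dnd1 and Prdm1, by 4.05, 2.12 and 1.99 (SE 0.85, 0.26 and 0.34, adjusted p = 0.0395, 0.00722 and 0.0206, limma). These calls rested on single arrays, since without control PGCLC sample 2 the adjusted p was 0.209, 0.0658 and 0.129, and without control ESC sample 1 it was 0.149, 0.0693 and 0.108. Leaving out control PGCLC sample 1 (0.123) or either Tfap2c-/- PGCLC sample (0.0715 each) also ended the call on Dppa3, and control PGCLC sample 1 (0.0914) or control ESC sample 2 (0.128) that on Prdm1. Dppa3 also did not pass on the 4 control samples alone (adjusted p = 0.0674, limma) or in a fit without limma's variance trend (0.0507). The other 5 measured germ cell markers did not pass between control PGCLCs and control ESCs, where 4.83% of all probe sets passed. Of the 8 pluripotent cell markers 1 passed there as higher and 3 as lower in control PGCLCs. Control PGCLC sample 2 stood apart by a Gapdh 3′ to 5′ difference of 0.95, against 0.31 to 0.52 on the other 7 arrays. Signal of the poly-A spike-in controls averaged 7.30 and 6.60 in Tfap2c-/- PGCLCs, against 5.71 and 7.73 in control PGCLCs, and lay between 5.23 and 5.71 in all ESC samples. The part of these differences in the results below was not tested.

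**Figure D1:**
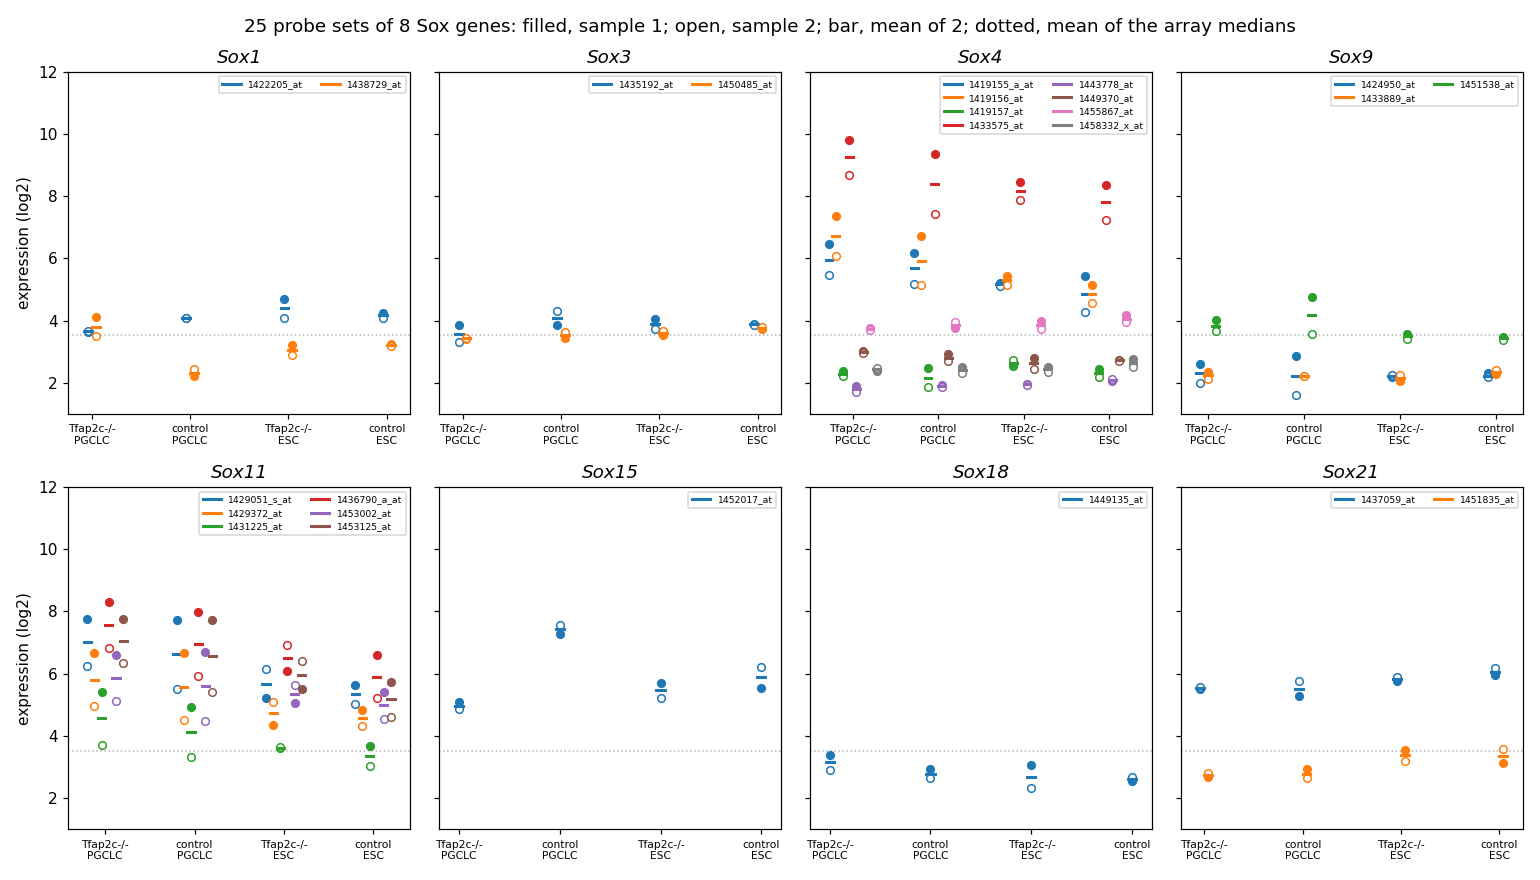
Normalised log2 expression (vertical axis) of the 25 probe sets of the 8 Sox genes in Tfap2c-/- PGCLCs, control PGCLCs, Tfap2c-/- ESCs and control ESCs (horizontal axis). Filled circles are sample 1, open circles sample 2, bars the mean of 2 and the dotted line the mean of the array medians. Sox15 is highest in control PGCLCs at 7.29 and 7.55, and in both PGCLC groups every Sox11 probe set has its filled circle above its open one by more than 1.

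In PGCLCs 2 of the 25 probe sets passed limma's test at an adjusted p under 0.05 between Tfap2c-/- and control cells, where 1.34% of all 45037 probe sets passed. One was the probe set of Sox15, which was lower in Tfap2c-/- PGCLCs, and the other was 1 of the 2 probe sets of Sox1, which was higher. The other 23 did not pass, and none of them had an unadjusted p under 0.05, where 12.1% of all probe sets had one. The median difference of the 25 probe sets was 0.13, against -0.02 over all probe sets, and 17 of the 25 differences were above 0. Sox4 with 8 and Sox11 with 6 probe sets weigh heavily in both figures. By the brightest probe set of each of the 8 genes, 4 differences lay above 0 and 4 below, with a median of -0.16. The samples of the 2 genotypes did not overlap for 4 of the 25, where 42.7% of all probe sets did not overlap. In ESCs none of the 25 passed, and none had an unadjusted p under 0.05, where 0.00% of all probe sets passed and 2.89% had such an unadjusted p. The median difference in ESCs was 0.07 for the 25 and 0.0 for all, and 5 of the 25 did not overlap, where 24.2% of all did not. The PGCLC and ESC effects were also compared in 1 test. No Sox probe set passed it, 2 had an unadjusted p under 0.05 (Sox15 and the same Sox1 probe set), and over all probe sets 0.0377% passed and 7.03% had such an unadjusted p. The arrays measured bulk RNA, in which fewer cells of a type and less RNA per cell cannot be told apart.

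**Figure D2:**
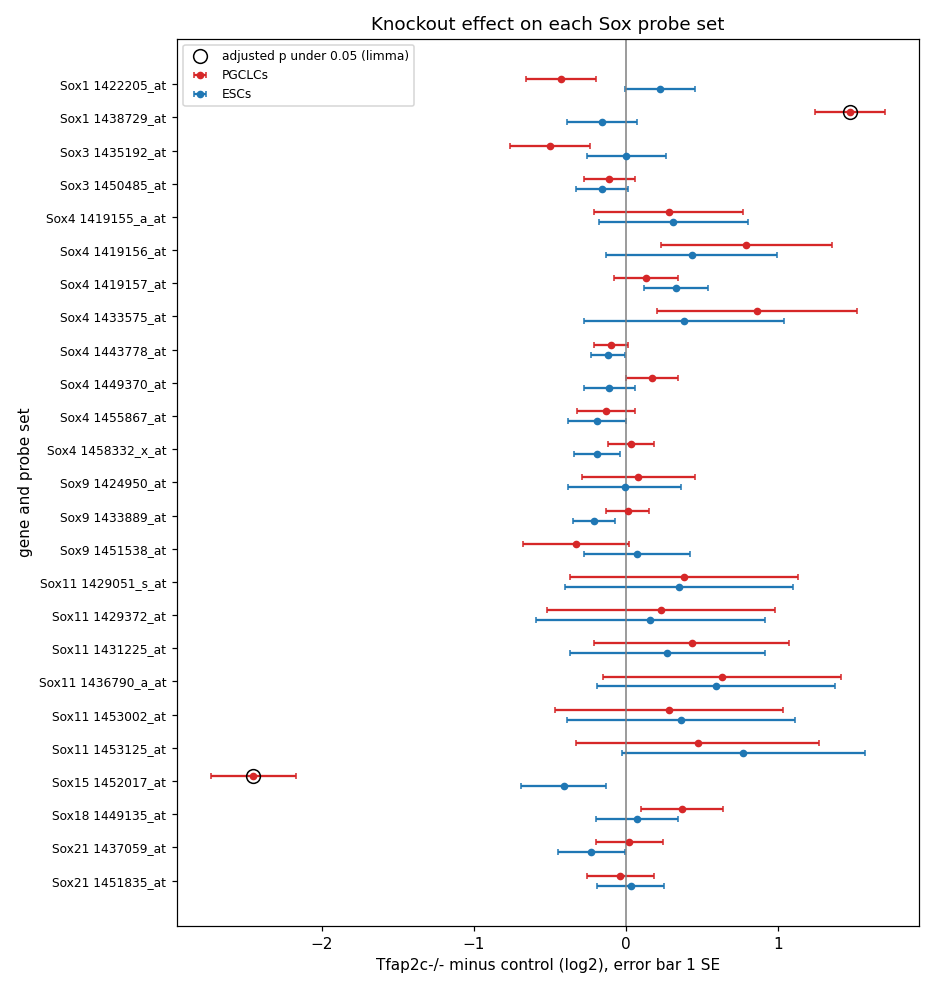
Difference between Tfap2c-/- and control cells on the log2 scale (horizontal axis, error bars 1 SE from limma) for each of the 25 Sox probe sets (vertical axis), in PGCLCs (red) and in ESCs (blue). Black rings mark an adjusted p under 0.05, which only Sox15 at -2.45 and Sox1 1438729_at at 1.47 have, both in PGCLCs.

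Sox15 (probe set 1452017_at) was the member with the largest difference. Its values were 5.09 and 4.85 in Tfap2c-/- PGCLCs, against 7.29 and 7.55 in control PGCLCs, while Tfap2c-/- ESCs had 5.71 and 5.22, against 5.53 and 6.22 in control ESCs. Both control PGCLC samples lay above all 6 other samples, and both Tfap2c-/- PGCLC samples lay below all the others. Group means were 4.97 ± 0.17 (SD, n = 2) in Tfap2c-/- PGCLCs and 7.42 ± 0.18 (SD, n = 2) in control PGCLCs, and the difference of -2.45 (SE 0.28, adjusted p = 0.0112, limma) is 5.46-fold lower signal. In ESCs the means were 5.47 ± 0.35 (SD, n = 2) in Tfap2c-/- and 5.88 ± 0.49 (SD, n = 2) in control cells, the samples overlapped, and the difference of -0.41 (SE 0.28, adjusted p = 1, limma) did not pass. The effect in PGCLCs minus that in ESCs was -2.04 (SE 0.40), with an adjusted p of 0.226 and an unadjusted p of 0.000974 (limma), so a difference between the cell types did not pass the test over all probe sets.

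Between cell types Sox15 also differed in controls. Control PGCLCs exceeded control ESCs by 1.54 (SE 0.28, adjusted p = 0.0254, limma), which is 2.92-fold, and Sox15 was the single Sox probe set of 25 that passed this comparison, where 4.83% of all probe sets passed. Of the 25, 4 had an unadjusted p under 0.05, where 19.8% of all had one. In the absence of Tfap2c it was -0.50 (SE 0.28, adjusted p = 0.423, limma) in PGCLCs relative to ESCs, without overlap of the 4 samples. The order of the group means from high to low was thus control PGCLCs, control ESCs, Tfap2c-/- ESCs and Tfap2c-/- PGCLCs, and no neighbours among the last 3 passed the test where it was run (control against Tfap2c-/- ESCs, and Tfap2c-/- ESCs against Tfap2c-/- PGCLCs). These comparisons share samples and are not independent of each other. With 2 samples a group the calls rested on single arrays. For Tfap2c-/- against control PGCLCs the adjusted p was 0.111 without control PGCLC sample 2 and 0.0977 without Tfap2c-/- PGCLC sample 2, with differences of -2.32 and -2.33, within a range of 0.0044 to 0.111 over all settings tried. For control PGCLCs against control ESCs it was 0.136 without control ESC sample 1, 0.084 without control PGCLC sample 1 and 0.162 without control PGCLC sample 2, at differences of 1.20, 1.67 and 1.42, within a range of 0.00879 to 0.162.

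The genes with a pattern most like that of Sox15 were sought by Pearson's r over the 8 arrays, among 4593 genes whose brightest probe set ranged over at least 1. Efcab10 (r = 0.993) had 4.55 and 4.22 in Tfap2c-/- PGCLCs, against 6.69 and 6.86 in control PGCLCs, while Tfap2c-/- ESCs had 5.05 and 4.68, against 5.14 and 5.39 in control ESCs. Dennd3 (r = 0.992), which encodes a guanine nucleotide exchange factor of the DENN family, had 4.53 and 4.47 in Tfap2c-/- PGCLCs, against 5.40 and 5.54 in control PGCLCs. Anapc10 (r = 0.989), a subunit of the anaphase-promoting complex, had 8.28 and 8.11 in Tfap2c-/- PGCLCs, against 10.01 and 9.93 in control PGCLCs. All 3 were, like Sox15, highest in the control PGCLC samples and lowest in the Tfap2c-/- PGCLC samples. The 8 arrays fall into 4 groups, so a high r follows largely from the order of the group means, and it is given as a description.

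**Figure D3:**
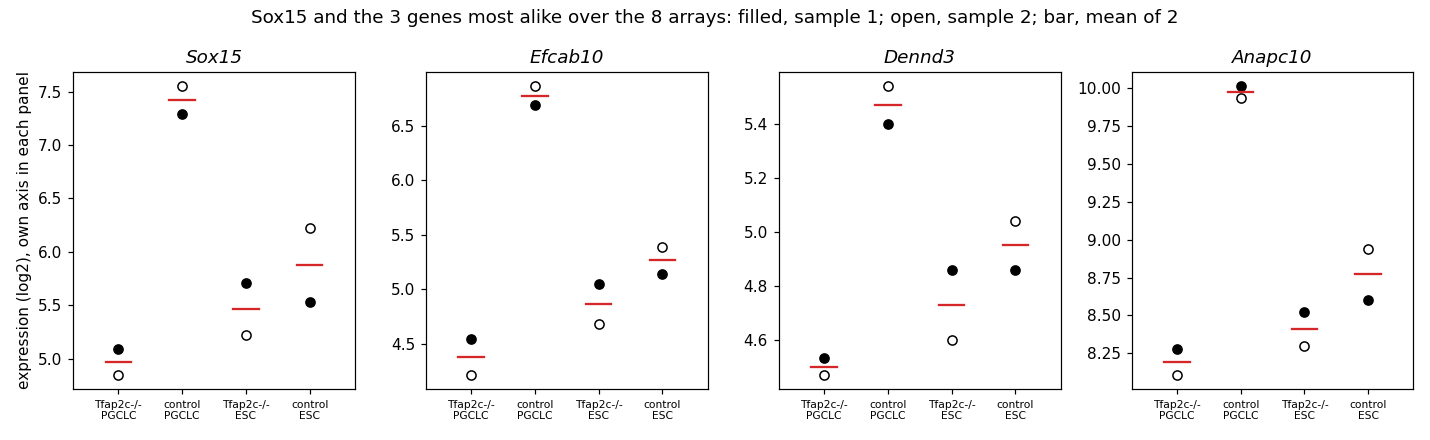
Log2 expression (vertical axis, with its own range in each panel) of Sox15 and of the 3 genes with the highest Pearson's r to it, Efcab10, Dennd3 and Anapc10, in Tfap2c-/- PGCLCs, control PGCLCs, Tfap2c-/- ESCs and control ESCs (horizontal axis). Filled circles are sample 1, open circles sample 2 and bars the mean of 2, and in each panel control PGCLCs are the highest and Tfap2c-/- PGCLCs the lowest group.

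The 2 probe sets of Sox1, which drives neural fate and marks early neuroectoderm, went in opposite directions. Probe set 1438729_at had 4.10 and 3.5 in Tfap2c-/- PGCLCs, against 2.21 and 2.44 in control PGCLCs, while Tfap2c-/- ESCs had 3.22 and 2.90, against 3.26 and 3.19 in control ESCs. Both Tfap2c-/- PGCLC samples lay above all others and both control PGCLC samples below all others. The difference in PGCLCs was 1.47 (SE 0.23, adjusted p = 0.0303, limma), with the control values near the floor, the difference in ESCs was -0.16 (SE 0.23, adjusted p = 1, limma), and the test between these effects gave 1.63 (SE 0.33, adjusted p = 0.243, limma). Probe set 1422205_at had 3.64 and 3.67 in Tfap2c-/- PGCLCs, against 4.09 and 4.08 in control PGCLCs, while Tfap2c-/- ESCs had 4.70 and 4.09, against 4.25 and 4.09 in control ESCs. Here the Tfap2c-/- PGCLC samples were the lowest of the 8, with a difference of -0.43 (SE 0.23, adjusted p = 0.529, limma), and the difference in ESCs was 0.22 (SE 0.23, adjusted p = 1, limma).

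Neither Sox1 probe set passed between PGCLCs and ESCs. Control PGCLCs against control ESCs gave -0.90 (SE 0.23, adjusted p = 0.0743, limma) on 1438729_at and -0.08 (SE 0.23, adjusted p = 0.883, limma) on 1422205_at, and Tfap2c-/- PGCLCs against Tfap2c-/- ESCs gave 0.73 (SE 0.23, adjusted p = 0.191, limma) on 1438729_at and -0.74 (SE 0.23, adjusted p = 0.179, limma) on 1422205_at. Which part of the Sox1 transcript each probe set covers was not given in the tables used here, and on 1438729_at the values lie below the array median on 7 of the 8 arrays (all but Tfap2c-/- PGCLC sample 1), so that the filter on dim probe sets removed it. The mean of both probe sets differed between Tfap2c-/- and control PGCLCs by 0.52 (adjusted p = 0.244, limma), within a range of 0.0191 to 0.244 over all settings tried for 1438729_at. The call on 1438729_at was also lost on leaving out any 1 of control ESC sample 1 (adjusted p = 0.0749), control ESC sample 2 (0.0747), control PGCLC sample 1 (0.125), control PGCLC sample 2 (0.167), Tfap2c-/- PGCLC sample 1 (0.0991) or Tfap2c-/- PGCLC sample 2 (0.0677), at differences between 1.17 and 1.77. By the brighter probe set, 1422205_at, the genes most like Sox1 over the 8 arrays were Zfp111 (r = 0.956), Elobl (r = 0.908) and Irf8 (r = 0.903), with differences between Tfap2c-/- and control PGCLCs of -0.45, -0.29 and -0.33.

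Sox3, the other SoxB1 factor, gave no call. Probe set 1435192_at had 3.85 and 3.30 in Tfap2c-/- PGCLCs, against 3.85 and 4.30 in control PGCLCs, a difference of -0.50 (SE 0.26, adjusted p = 0.508, limma), while Tfap2c-/- ESCs had 4.04 and 3.72, against 3.90 and 3.85 in control ESCs. Probe set 1450485_at lay between 3.41 and 3.78 in all 8 samples. The genotypes overlapped in both cell types on the first and in PGCLCs on the second.

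Sox21, the SoxB2 factor, had overlapping genotypes in PGCLCs and lower values in PGCLCs than in ESCs, without passing the test. Probe set 1437059_at had 5.52 and 5.56 in Tfap2c-/- PGCLCs, against 5.27 and 5.77 in control PGCLCs, while Tfap2c-/- ESCs had 5.76 and 5.90, against 5.95 and 6.17 in control ESCs. Probe set 1451835_at had 2.68 and 2.80 in Tfap2c-/- PGCLCs, against 2.93 and 2.64 in control PGCLCs, while Tfap2c-/- ESCs had 3.55 and 3.20, against 3.12 and 3.57 in control ESCs. On each probe set both PGCLC samples of a genotype lay below both ESC samples of that genotype. The differences of control PGCLCs from control ESCs were -0.54 and -0.56 (SE 0.22 each, adjusted p = 0.219 and 0.204, limma), those of Tfap2c-/- PGCLCs from Tfap2c-/- ESCs were -0.29 and -0.63 (SE 0.22 each, adjusted p = 0.535 and 0.217, limma), and none passed. Between genotypes Sox21 differed by 0.02 and -0.04 in PGCLCs and by -0.23 and 0.03 in ESCs (SE 0.22 each).

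Sox11 differed more between the samples of a PGCLC group than between the genotypes. Its 6 probe sets share 1 gene and are not replicates. Probe set 1436790_a_at had 8.32 and 6.83 in Tfap2c-/- PGCLCs, against 7.98 and 5.91 in control PGCLCs, while Tfap2c-/- ESCs had 6.08 and 6.91, against 6.61 and 5.20 in control ESCs. Probe set 1453125_at had 7.76 and 6.33 in Tfap2c-/- PGCLCs, against 7.74 and 5.41 in control PGCLCs, while Tfap2c-/- ESCs had 5.49 and 6.40, against 5.74 and 4.62 in control ESCs. In both PGCLC groups sample 1 was far above sample 2, and the genotypes overlapped. Probe set 1429051_s_at had 7.75 and 6.26 in Tfap2c-/- PGCLCs, against 7.74 and 5.51 in control PGCLCs, while Tfap2c-/- ESCs had 5.21 and 6.14, against 5.63 and 5.03 in control ESCs. Probe set 1429372_at had 6.67 and 4.95 in Tfap2c-/- PGCLCs, against 6.65 and 4.51 in control PGCLCs, while Tfap2c-/- ESCs had 4.36 and 5.09, against 4.83 and 4.30 in control ESCs. Both repeated the order of samples within each group. Probe set 1453002_at had 6.61 and 5.13 in Tfap2c-/- PGCLCs, against 6.71 and 4.46 in control PGCLCs, while Tfap2c-/- ESCs had 5.05 and 5.63, against 5.42 and 4.54 in control ESCs. Probe set 1431225_at, the dimmest, had 5.42 and 3.71 in Tfap2c-/- PGCLCs, against 4.94 and 3.32 in control PGCLCs, while Tfap2c-/- ESCs had 3.60 and 3.64, against 3.68 and 3.02 in control ESCs. The genotypes overlapped in PGCLCs and in ESCs on all 6. Over the 6 probe sets Tfap2c-/- minus control lay between 0.23 and 0.63 in PGCLCs and between 0.16 and 0.77 in ESCs. Control PGCLCs minus control ESCs lay between 0.61 and 1.40, and Tfap2c-/- PGCLCs minus Tfap2c-/- ESCs between 0.53 and 1.33. None passed, with SE of 0.64 to 0.80 and adjusted p of 0.396 or more.

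Sox4, which acts beside Sox11 in many progenitors, was read by 8 probe sets, of which 4 (1419157_at, 1443778_at, 1449370_at and 1458332_x_at) lay below the array median on all 8 arrays, between 1.69 and 3.01, and 1455867_at lay between 3.69 and 4.17. The brightest, 1433575_at, had 9.82 and 8.69 in Tfap2c-/- PGCLCs, against 9.36 and 7.43 in control PGCLCs, while Tfap2c-/- ESCs had 8.46 and 7.88, against 8.35 and 7.24 in control ESCs. Probe set 1419156_at had 7.35 and 6.09 in Tfap2c-/- PGCLCs, against 6.72 and 5.15 in control PGCLCs, while Tfap2c-/- ESCs had 5.43 and 5.15, against 5.15 and 4.56 in control ESCs. On both, sample 1 again lay above sample 2 in both PGCLC groups, and the genotypes overlapped. The differences in PGCLCs were 0.86 (SE 0.66, adjusted p = 0.711, limma) on 1433575_at and 0.79 (SE 0.56, adjusted p = 0.683, limma) on 1419156_at, and in this unpaired comparison they were -0.10 and 0.0 without control PGCLC sample 2. On 1419156_at PGCLCs minus ESCs was 1.43 (SE 0.56, adjusted p = 0.269, limma) in Tfap2c-/- and 1.08 (SE 0.56, adjusted p = 0.346, limma) in control cells. The remaining probe set, 1419155_a_at, had 6.45 and 5.47 in Tfap2c-/- PGCLCs, against 6.18 and 5.18 in control PGCLCs, while Tfap2c-/- ESCs had 5.20 and 5.12, against 5.42 and 4.28 in control ESCs.

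The gap between samples of Sox11 and Sox4 was described further after these values had been seen. Sample 1 was above sample 2 by more than 1 in both PGCLC groups on 8 of the 25 Sox probe sets, namely all 6 of Sox11 and 1419156_at and 1433575_at of Sox4, where 0.56% of all 45037 probe sets were. For Sox11 the gap was 1.43 to 1.73 in Tfap2c-/- PGCLCs, against 1.62 to 2.33 in control PGCLCs, and it was -0.93 to -0.04 in Tfap2c-/- ESCs, against 0.53 to 1.42 in control ESCs, so Tfap2c-/- ESCs went the other way. Over the brightest probe sets of all 18193 genes, 31.7% had sample 1 above sample 2 in both PGCLC groups and 0.797% had it above by more than 1 in both. Genes of other cell types were read the same way, and none of the fibroblast, endoderm, mesoderm or endothelial markers had a gap above 1 in both groups. At 0.797% of all genes, lists this short would mostly hold no such gene, and the cut passes over smaller gaps. Col1a2 had 5.69 and 4.06 in Tfap2c-/- PGCLCs, against 4.83 and 3.91 in control PGCLCs. Col3a1 had 3.47 and 1.98, against 2.80 and 1.90, and the endoderm marker Dab2 had 4.84 and 3.32, against 4.43 and 3.57. The 8 fibroblast markers had a mean level of 3.88 and 3.32 in Tfap2c-/- PGCLCs, against 3.70 and 3.08 in control PGCLCs, and of 2.93 to 3.01 in ESCs, 6 of the 8 were higher in sample 1 in both PGCLC groups, and 4 of the 8 were below the array median on every array. Col1a1, a defining collagen of fibroblasts, had 5.27 and 4.30 in Tfap2c-/- PGCLCs, against 5.06 and 3.13 in control PGCLCs, and 2.83 to 3.13 in ESCs. Of 15 measured neural progenitor genes, 5 were higher in sample 1 in both PGCLC groups, 1 of them by more than 1, and 2 were higher in sample 2 in both. That 1 was Zic1, with 4.02 and 1.89 in Tfap2c-/- PGCLCs, against 4.27 and 1.91 in control PGCLCs. The 8 endoderm markers averaged 3.73 and 3.40 in Tfap2c-/- PGCLCs, against 3.5 and 3.02 in control PGCLCs, with 5 of 8 higher in sample 1 in both, and the 7 measured mesoderm markers averaged 3.82 and 3.76 in Tfap2c-/- PGCLCs, against 3.95 and 3.91 in control PGCLCs, with 3 of 7. Of the 10 endothelial genes, 6 were higher in sample 1 in both. The part of other cells, or of the 2 ESC lines, in the Sox11 and Sox4 values was not tested.

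**Figure D4:**
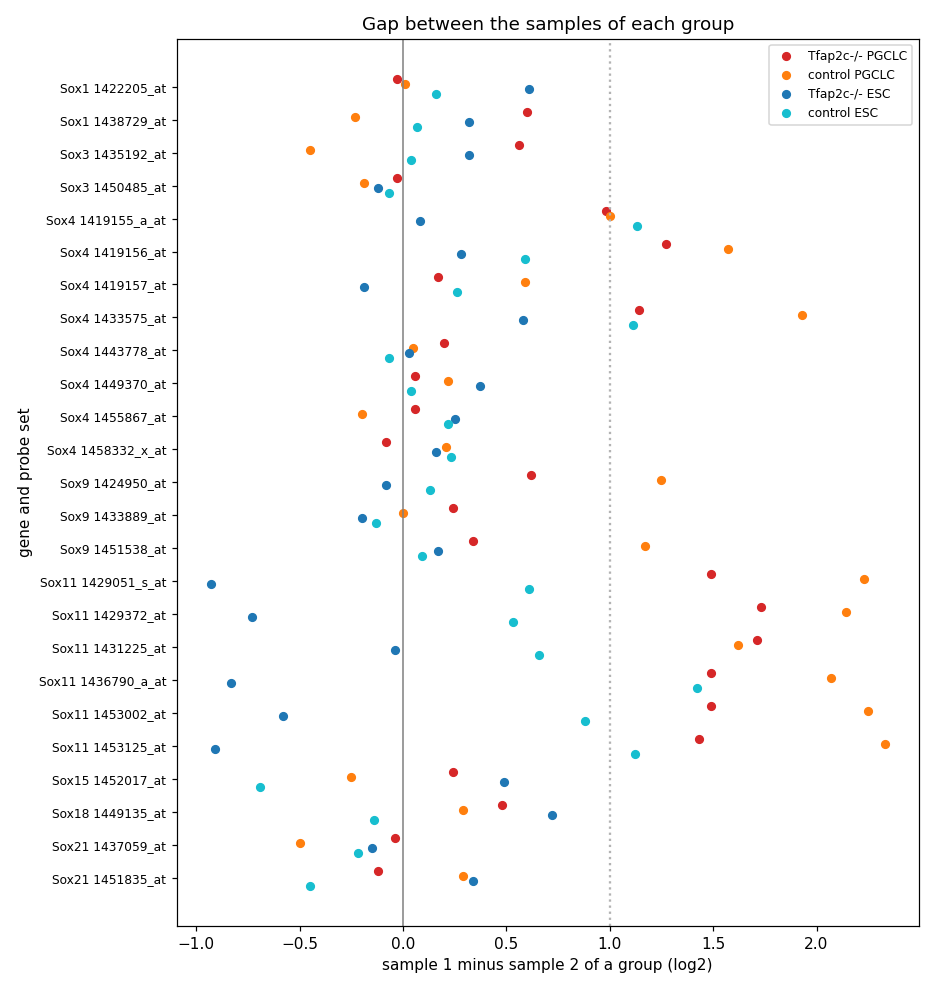
Sample 1 minus sample 2 within a group on the log2 scale (horizontal axis) for each of the 25 Sox probe sets (vertical axis), in Tfap2c-/- PGCLCs, control PGCLCs, Tfap2c-/- ESCs and control ESCs. The solid line is at 0 and the dotted line at 1. All 6 Sox11 probe sets lie past 1 in both PGCLC groups, between 1.43 and 2.33, and below 0 in Tfap2c-/- ESCs.

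Sox9 was read above the array median by 1 of its 3 probe sets, on 5 of the 8 arrays. Probe set 1451538_at had 4.01 and 3.67 in Tfap2c-/- PGCLCs, against 4.75 and 3.58 in control PGCLCs, while Tfap2c-/- ESCs had 3.58 and 3.41, against 3.47 and 3.39 in control ESCs. PGCLCs minus ESCs was 0.34 (SE 0.35, adjusted p = 0.663, limma) in Tfap2c-/- cells and 0.74 (SE 0.35, adjusted p = 0.299, limma) in control cells, without overlap in either. Tfap2c-/- minus control in PGCLCs was -0.33 (SE 0.35, adjusted p = 0.817, limma) and was 0.25 without control PGCLC sample 1. The other probe sets, 1424950_at (1.60 to 2.85) and 1433889_at (2.04 to 2.41), lay below the array median throughout. Sox18, with 1449135_at, also lay below it, at 3.39 and 2.91 in Tfap2c-/- PGCLCs, against 2.92 and 2.63 in control PGCLCs, while Tfap2c-/- ESCs had 3.05 and 2.33, against 2.55 and 2.68 in control ESCs. The genotypes overlapped in both cell types, with a difference of 0.37 (SE 0.27, adjusted p = 0.688, limma) in PGCLCs.

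Over all 25 probe sets, PGCLCs and ESCs did not overlap for 8 of the 25 in control cells, where 50.2% of all probe sets did not, and for 15 of the 25 in Tfap2c-/- cells, where 45.5% did not. In Tfap2c-/- cells none of the 25 passed between PGCLCs and ESCs, 4 had an unadjusted p under 0.05, and over all probe sets 1.34% passed and 16.3% had such an unadjusted p. The median difference was 0.34 for the 25 and -0.06 for all in Tfap2c-/- cells, and 0.16 and -0.03 in control cells. By the brightest probe set of each of the 8 genes, the median was 0.02 in Tfap2c-/- cells and 0.4 in control cells.

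The remaining Sox genes were read by the brightest probe set of each, and all 12 were measured. None passed between Tfap2c-/- and control cells, in PGCLCs (median difference 0.04, against -0.02 over all) or in ESCs (0.03, against 0.01). Of all probe sets 1.34% passed in PGCLCs and 0.00% in ESCs. Between control PGCLCs and control ESCs 1 of the 12 passed, where 4.83% of all probe sets did. Sox13, a SoxD factor, rose in control PGCLCs relative to control ESCs, with 6.55 and 6.60 in control PGCLCs and 5.64 and 5.65 in control ESCs, a difference of 0.93 (SE 0.16, adjusted p = 0.0218, limma). The call was lost on leaving out any 1 of the 4 samples, at differences of 0.9 to 0.95. In Tfap2c-/- PGCLCs it had 6.16 and 6.08, below both control PGCLC samples, a difference of -0.45 (SE 0.16, adjusted p = 0.29, limma). Sox2 had 11.12 and 11.34 in Tfap2c-/- PGCLCs, against 11.13 and 11.26 in control PGCLCs, while Tfap2c-/- ESCs had 11.0 and 11.19, against 11.19 and 11.11 in control ESCs, so its genotypes overlapped in PGCLCs.

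Genes that act in the same programs were counted from lists, each gene by its brightest probe set, while the shares beside them cover all probe sets. In a fit of the brightest probe set of each of 18193 genes the shares were larger. There 562 passed between PGCLC genotypes, 1522 between control PGCLCs and control ESCs, and 422 between Tfap2c-/- PGCLCs and Tfap2c-/- ESCs. At such shares a short list can well hold no call or 1 call. Of 15 measured neural progenitor genes, the setting of Sox1 and Sox3, none passed between Tfap2c-/- and control PGCLCs (median 0.16, against -0.02 over all). Of all probe sets 1.34% passed there. Ncam1, a neural adhesion molecule, had 5.44 and 6.36 in Tfap2c-/- PGCLCs, against 4.68 and 4.13 in control PGCLCs (difference 1.5, SE 0.32, adjusted p = 0.0827, limma), and Hes1, a Notch target that holds progenitors undifferentiated, had 6.82 and 6.77, against 5.97 and 5.28 (difference 1.17, SE 0.31, adjusted p = 0.149, limma). The genotypes did not overlap for either gene. In control PGCLCs Hes1 fell by 1.46 relative to control ESCs (SE 0.31, adjusted p = 0.043, limma), the 1 gene of the 15 to pass there, where 4.83% of all probe sets passed. That call was lost without control PGCLC sample 1 (adjusted p = 0.062) or 2 (0.229), control ESC sample 1 (0.136) or 2 (0.218), or Tfap2c-/- PGCLC sample 1 (0.0767) or 2 (0.0766). On the 4 control samples alone Hes1 did not pass either (adjusted p = 0.0621, limma). Pax6, a factor of neuroectoderm and eye, had 4.49 and 5.56 in Tfap2c-/- PGCLCs and 3.09 and 3.22 in Tfap2c-/- ESCs (difference 1.87, SE 0.35, adjusted p = 0.0553, limma). None of the 15 passed in that comparison, where 1.34% of all probe sets passed.

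Of 7 neuronal genes placed downstream of Sox4 and Sox11, 1 passed as higher in Tfap2c-/- PGCLCs, where 1.34% of all probe sets passed. Stmn2, a microtubule regulator of growing neurites, had 9.22 and 9.15 in Tfap2c-/- PGCLCs, against 5.84 and 4.80 in control PGCLCs, while Tfap2c-/- ESCs had 10.61 and 10.49, against 10.56 and 10.65 in control ESCs. It was higher by 3.87 in PGCLCs (SE 0.29, adjusted p = 0.00277, limma), the effect differed from that in ESCs by 3.92 (SE 0.41, adjusted p = 0.0391, limma), and control PGCLCs were lower than control ESCs by 5.28 (log2 difference -5.28, SE 0.29, adjusted p = 0.000543, limma). Stmn2 was thus high in both ESC groups, and in control PGCLCs its sample 1 lay above its sample 2. The call on the difference between cell types was lost without Tfap2c-/- PGCLC sample 1 (adjusted p = 0.153) or 2 (0.147), Tfap2c-/- ESC sample 1 (0.15) or 2 (0.156), or control ESC sample 1 (0.28) or 2 (0.253), within a range of 0.00502 to 0.28 over all settings tried, while its size stayed between 3.40 and 4.44. The difference between PGCLC genotypes and that between control PGCLCs and ESCs still passed whichever 1 sample was left out, and the first had an adjusted p of 0.0593 (limma) when fitted on its 4 samples alone.

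Of 9 genes placed downstream of Sox9, none passed in any comparison, where between 0.00% and 4.83% of all probe sets passed. Col2a1, the main collagen of cartilage, had 5.88 and 4.39 in Tfap2c-/- PGCLCs, against 5.28 and 4.0 in control PGCLCs, while Tfap2c-/- ESCs had 3.48 and 3.75, against 2.92 and 2.98 in control ESCs, with sample 1 above sample 2 by more than 1 in both PGCLC groups. Of 10 endothelial genes, the setting of Sox18, 2 fell in Tfap2c-/- PGCLCs and none rose, where 1.34% of all probe sets passed in either direction. The median difference of the 10 was 0.02, against -0.02 over all, and 5 lay above 0 and 5 below. Cldn5, a tight-junction protein of vessels, had 4.61 and 3.94 in Tfap2c-/- PGCLCs, against 6.50 and 6.32 in control PGCLCs (difference -2.13, SE 0.25, adjusted p = 0.012, limma), and its level in control PGCLCs exceeded that in control ESCs by 2.23 (SE 0.25, adjusted p = 0.00551, limma). Pecam1, an adhesion molecule of endothelium that ESCs and germ cells also carry, had 4.22 and 4.32 in Tfap2c-/- PGCLCs, against 5.90 and 5.65 in control PGCLCs (difference -1.5, SE 0.23, adjusted p = 0.026, limma). The call on Cldn5 between genotypes was lost without Tfap2c-/- PGCLC sample 2 (adjusted p = 0.0788) or control PGCLC sample 1 (0.0536) or 2 (0.096), and that between its controls without control ESC sample 1 (0.0607). The call on Pecam1 was lost without Tfap2c-/- PGCLC sample 1 (0.114) or 2 (0.156), control PGCLC sample 1 (0.107) or 2 (0.144), or control ESC sample 1 (0.0538) or 2 (0.0541). Fitted on the 4 PGCLC samples alone, neither Cldn5 nor Pecam1 passed between genotypes (adjusted p = 0.0853 and 0.0814, limma). Tek, an endothelial receptor kinase, lay the other way without passing, with 5.02 and 4.65 in Tfap2c-/- PGCLCs, against 3.58 and 2.88 in control PGCLCs (difference 1.61, SE 0.36, adjusted p = 0.0897, limma). Sox18 itself did not pass.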

How the data were processed

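RNA from ESCs and sorted PGCLCs was hybridised to Affymetrix mouse genome arrays, 1 sample per array. The deposited log2 values had been normalized across arrays by the authors. RMA is named in the methods and GCRMA, with no version, in the submitters' processing notes. Both take background, scaling and probe summary together. Which of them gave the deposited values is not known, and differences near the floor may depend on that choice. The number of arrays limits the precision. Of 45101 probe sets, 64 manufacturer controls were left out, 34945 name 1 gene, 932 name several and 9160 are not listed.

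The 4 group means were fitted together with limma 3.58.1 in R 4.3.3 (eBayes with trend, 4 residual and 3.78 prior degrees of freedom) on all 45037 probe sets, and two-sided p was adjusted by Benjamini-Hochberg over them at a threshold of 0.05. Genes outside the 8 were read by their probe set of highest mean. Python 3.11.15, NumPy 2.4.6, pandas 2.3.3 and Matplotlib 3.10.9 were used, and the fit was tested on simulated data. The 8 genes and all lists were chosen with earlier results of these data known. Named genes were all Sox members, Tfap2c, up to 4 members of a list past the test (else up to 2 with the largest difference) and the 3 genes most like a member that passed. Zic1, Col1a1, Col1a2, Col3a1, Dab2, Col2a1, Sox2, Tek, Dppa3 and Dmrt1 were named for the sample gap, as family context or beside a list's count after their values were seen.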

Additional observations from a re-analysis of the deposited data

Results flagged for a closer look

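No Sox probe set showed an effect of Tfap2c loss that differed between the cell types at the threshold. Of the other genes named, Stmn2 did. Its effect in PGCLCs minus that in ESCs came to 3.92 (log2; SE 0.41; limma adjusted p = 0.0391), with both Tfap2c-/- PGCLC samples above both control PGCLC samples and overlapping values in ESCs. The adjusted p (limma) rose above 0.05 with any of 6 samples left out, namely Tfap2c-/- PGCLC sample 1 (0.153) or 2 (0.147), Tfap2c-/- ESC sample 1 (0.15) or 2 (0.156) and control ESC sample 1 (0.28) or 2 (0.253), and also with the filter on dim probe sets (0.0619) or without the variance trend (0.0643), while the size stayed between 3.40 and 4.44 in all of these and the other settings tried.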

How the results depend on the processing

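The fits were repeated with the brightest probe set or the mean of probe sets per gene, without cross-hybridizing probe sets, after quantile scaling or centring of medians, with a filter on dim probe sets, without a variance trend, with the 4 samples of a comparison, with the replicate number as a block, without each sample, and with a fold rule of 1.5. Of 822 checks of 47 named differences, 740 kept their direction and side of the threshold. This count pools calls with differences that had not passed, which kept their side by not passing again. For calls it ran from 8 of 16 checks (Sox1 1438729_at between PGCLC genotypes) to 18 of 18 (Stmn2 between control PGCLCs and ESCs). For Sox15 between PGCLC genotypes it was 15 of 18.

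Between Tfap2c-/- and control PGCLCs, 2 Sox probe sets passed, and 1, that of Sox15, did with the brightest probe set, with the mean of probe sets, with the filter on dim probe sets and with the fold rule. With the 4 samples alone 0 passed (Sox15 adjusted p = 0.0516, Sox1 1438729_at 0.126), and without 1 sample between 0 and 2 passed. The 0 came from leaving out control PGCLC sample 2 or Tfap2c-/- PGCLC sample 2 (Sox15 adjusted p = 0.111 and 0.0977). Between control PGCLCs and control ESCs 1 passed, 0 with the 4 samples alone (Sox15 adjusted p = 0.0504), and 0 to 1 without 1 sample (0 without control ESC sample 1 or either control PGCLC sample). For the difference of effects the fold rule took 2 where the test took 0. When a sample was left out, the lone sample was assumed to vary like the other groups.

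The mean of the Sox1 probe sets gave 0.52 in PGCLCs and 0.49 for the difference of effects, turning 1422205_at, and -0.01 for Tfap2c-/- PGCLCs against ESCs, turning 1438729_at, by construction of the mean. Without control PGCLC sample 2, Tfap2c-/- against control PGCLCs gave -0.10 on Sox4 1433575_at, 0.0 on Sox4 1419156_at and -0.41 on Sox11 1436790_a_at, which gave -0.12 with Tfap2c-/- PGCLC sample 1 left out. Leaving out control PGCLC sample 1, Sox9 1451538_at gave 0.25 there and Sox4 1433575_at gave -0.37 between control PGCLCs and ESCs. Over all samples left out, these ranges reached 1.83, 1.57 and 1.66 for the 2 Sox4 and the Sox11 probe sets, ran from -0.92 for Sox9, and reached 1.56 for Sox4 between controls. The cause was not tested.

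Same-numbered samples did not deviate together in every pair of groups (r of deviations from -0.346 to 0.424). A replicate block gave 2, 0, 0, 1 and 0 Sox probe sets over the 5 comparisons, as without it, and 643 of all probe sets for Tfap2c-/- against control PGCLCs. With the control ESC numbers crossed, a pairing chosen after seeing the data, the block gave 2 Sox probe sets between control PGCLCs and control ESCs, and over all probe sets 1284 between PGCLCs, 48 for the difference of effects, 4376 between controls and 2100 between Tfap2c-/- groups.

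Over all probe sets, 604 passed between Tfap2c-/- and control PGCLCs, against 36 with the 4 samples alone and 60 to 588 without 1 sample (60 with control PGCLC sample 2 left out, 65 with Tfap2c-/- PGCLC sample 2 left out). The counts were 2177 between control PGCLCs and ESCs (1322 by gene means, 225 to 2789 without 1 sample), 603 between Tfap2c-/- PGCLCs and ESCs (287 by gene means, 0 with the 4 samples, 148 to 331 without 1 sample), 17 for the difference of effects (27 by brightest probe set, 7 with the filter, 0 to 17 without 1 sample) and 0 in ESCs (1 without control ESC sample 1).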

Other observations

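Members of the marker lists that were not Sox genes also differed between the groups. Of 8 pluripotent cell markers, Klf4 and Tdgf1 passed as higher in Tfap2c-/- PGCLCs than in control PGCLCs, and none passed as lower. Over all probe sets 1.34% passed in either direction, and in the fit of brightest probe sets 562 of 18193 genes did, a larger share. Klf4, a factor of naive pluripotency, had 8.52 and 9.48 in Tfap2c-/- PGCLCs, against 6.91 and 6.65 in control PGCLCs (difference 2.22, SE 0.28, adjusted p = 0.0147, limma). Tdgf1, a co-receptor for Nodal, had 11.03 and 11.11, against 9.49 and 9.93 (difference 1.36, SE 0.15, adjusted p = 0.00976, limma). The call on Klf4 was lost without control PGCLC sample 2 (difference 2.09) and that on Tdgf1 without Tfap2c-/- PGCLC sample 2 (difference 1.32). Fitted on the 4 PGCLC samples alone, neither passed (adjusted p = 0.112 and 0.0782, limma). Klf4 had 10.87 and 11.11 in Tfap2c-/- ESCs, against 11.03 and 10.98 in control ESCs. Tdgf1 had 10.95 and 10.78, against 10.82 and 10.95. Control PGCLCs minus control ESCs was -4.22 for Klf4 and -1.18 for Tdgf1 (SE 0.28 and 0.15, adjusted p = 0.00107 and 0.00749, limma). Tfap2c-/- PGCLCs minus Tfap2c-/- ESCs was -1.99 and 0.21 (SE 0.28 and 0.15, adjusted p = 0.024 and 0.524, limma).

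Of 8 measured germ cell markers, Kit alone passed between PGCLC genotypes, where 1.34% of all probe sets passed. It fell, with 6.84 and 6.94 in Tfap2c-/- PGCLCs, against 8.56 and 9.05 in control PGCLCs (difference -1.91, SE 0.21, adjusted p = 0.00976, limma). Kit did not pass when Tfap2c-/- PGCLC sample 1 (0.0507) or 2 (0.0787) or control PGCLC sample 2 (0.0783) was dropped from the fit. On the 4 PGCLC samples alone it did not pass either (adjusted p = 0.0641, limma). All 8 markers had a difference below 0, with a median of -1.32, against -0.02 over all, and the 7 other than Kit did not pass. Tfap2c, the deleted gene, is 1 of these 8, at -1.38, so its fall is no separate result on germ cell markers. Dppa3, a maternal factor and germ cell marker, had 6.28 and 6.40 in Tfap2c-/- PGCLCs, against 10.37 and 10.87 in control PGCLCs (difference -4.28, SE 0.85, adjusted p = 0.0611, limma). Dmrt1, a regulator of germ cell differentiation, had 5.71 and 4.88, against 7.88 and 8.08 (difference -2.68, SE 0.67, adjusted p = 0.125, limma). The genotypes did not overlap for either gene.

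Of 8 endoderm markers, Lama1, a laminin chain of basement membranes that ESCs also made here, was higher in Tfap2c-/- than in control PGCLCs. It had 6.03 and 5.95, against 4.24 and 3.53 in control PGCLCs (difference 2.11, SE 0.33, adjusted p = 0.0294, limma). Among all probe sets 1.34% passed in that comparison. Lama1 did not pass when Tfap2c-/- PGCLC sample 1 (0.123) or 2 (0.183) or control PGCLC sample 2 (0.218) was dropped. On the 4 PGCLC samples alone Lama1 did not pass either (adjusted p = 0.0915, limma). Lama1 had 7.11 and 7.54 in Tfap2c-/- ESCs, against 7.08 and 6.31 in control ESCs. Control PGCLCs minus control ESCs was -2.81 (SE 0.33, adjusted p = 0.00595, limma). None of 7 measured mesoderm markers and none of 8 fibroblast markers passed in any comparison, where between 0.00% and 4.83% of all probe sets passed.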
